A study of Mus musculus with 2 samples.

Results

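Receptors of natural killer (NK) cells were followed in breast tumour tissue from 2 groups of mice, each represented by 1 sequencing library. The 10 genes were those whose symbol is Ncr1, Klrb1c, Klrk1, Klrd1, Klrc1, Klrc2, Klre1, Klrg1, Klra4 or Cd160, out of 35602 gene symbols in the table. All mice received a PD-1 inhibitor intraperitoneally. In 1 group it was the sole treatment (the control library), in the other it was combined with acupuncture (the acupuncture library), and no untreated group was analysed here. Messenger RNA was sequenced from total RNA of the tissue. The labels name no mouse strain, age, tumour line, dose, schedule or number of animals behind a library. The design asks what acupuncture adds to PD-1 blockade, and these data give how transcripts of NK receptors differed between these 2 libraries.

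NK cells are innate lymphocytes that kill without an antigen receptor of their own, and they weigh signals from activating and inhibitory receptors before they do so. Activating receptors mostly pass their signal through adaptor proteins such as DAP10 (Hcst), DAP12 (Tyrobp), the Fc receptor gamma chain (Fcer1g) and CD3 zeta (Cd247). Inhibitory receptors carry their own tyrosine motif, which recruits phosphatases. Several of these receptors are shared: cytotoxic CD8 T cells carry NKG2D (Klrk1), CD94 (Klrd1), NKG2A (Klrc1), KLRG1 and CD160 as well, whereas NKp46 (Ncr1) is largely limited to NK cells and some other innate lymphoid cells. In bulk tissue, fewer cells of a type and less RNA per cell cannot be told apart.

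The members' place in the genome and the uniqueness of their sequence decide how the counts can be read, so both are given first. In the RefSeq gene order of mouse assembly GRCm38.p6, 8 of the 10 members lie on chromosome 6. There Klre1, Klrd1, Klrk1, Klrc3, Klrc2 and Klrc1 are consecutive protein-coding genes, a core of the NK gene complex. Klrb1c, Klrg1 and Klra4 lie elsewhere on the same chromosome, Ncr1 lies on chromosome 7 and Cd160 on chromosome 3. The authors' counts refer to another build, so no gene coordinates are set beside them.

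Klrc1 and Klrc2 are the members whose reads are hardest to tell apart. NKG2A, from Klrc1, is inhibitory and NKG2C, from Klrc2, is activating, and both pair with CD94. Their longest annotated coding sequences (GENCODE M21, 732 and 714 bases) were identical at 83.05% of 714 aligned bases. Of all 50-base stretches of the protein-coding transcripts, 38.6% for Klrc1 and 29.4% for Klrc2 also occur in transcripts of another gene, mostly in each other or in Klrc3. The longest identical run is the last 100 coding bases, which encode the end of the extracellular lectin-like domain and are the same in both genes.
Klrc1 and Klrc2, last 100 coding bases: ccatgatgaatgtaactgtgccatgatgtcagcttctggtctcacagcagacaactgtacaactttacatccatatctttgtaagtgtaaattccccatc
The first 150 coding bases, which begin with the cytoplasmic tail, follow with capitals for bases in no 50-base stretch shared with another gene.
Klrc1: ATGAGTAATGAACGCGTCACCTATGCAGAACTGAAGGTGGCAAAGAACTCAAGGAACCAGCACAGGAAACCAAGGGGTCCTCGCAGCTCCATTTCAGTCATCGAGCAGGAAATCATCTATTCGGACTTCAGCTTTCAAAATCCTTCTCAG
Klrc2: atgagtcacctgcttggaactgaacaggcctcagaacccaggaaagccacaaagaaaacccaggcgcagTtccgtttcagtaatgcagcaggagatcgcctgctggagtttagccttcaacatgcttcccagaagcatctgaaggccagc
All 150 of these bases were free of shared stretches in Klrc1, against 1 of 150 in Klrc2. Klrb1c shares 17.0% of its 50-base stretches with other genes, mainly the gene model Gm44511 and the relatives Klrb1a and Klrb1b, and Klra4 shares 4.68%, mainly with Klra1. The other 6 members share none. The labels do not say how shared reads were assigned, and values of Klrc1, Klrc2 and Klrb1c are uncertain to that extent.

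The sequences upstream of the start sites are shown for 4 members with folds from 1.61 to 5.23, chosen after their values were seen, with capitals for matches to short cores of factors active in NK cells. The 250 bases before the most upstream RefSeq start of each gene (GRCm38.p6) were searched on both strands for a RUNX core (TGTGGT), an ETS core (AGGAAG) and a T-box core (AGGTGT), and a promoter entry was found for 8 of the 10 members, all but Klrd1 and Klrg1.
Ncr1, GRCm38.p6 chr7:4337465-4337714, plus strand: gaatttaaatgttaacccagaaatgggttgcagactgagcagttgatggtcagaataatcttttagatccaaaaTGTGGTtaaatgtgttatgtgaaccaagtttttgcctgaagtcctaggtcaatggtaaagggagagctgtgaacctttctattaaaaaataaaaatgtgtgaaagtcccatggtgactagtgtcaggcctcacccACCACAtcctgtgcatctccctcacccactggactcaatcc
Klrk1, GRCm38.p6 chr6:129623865-129624114, minus strand: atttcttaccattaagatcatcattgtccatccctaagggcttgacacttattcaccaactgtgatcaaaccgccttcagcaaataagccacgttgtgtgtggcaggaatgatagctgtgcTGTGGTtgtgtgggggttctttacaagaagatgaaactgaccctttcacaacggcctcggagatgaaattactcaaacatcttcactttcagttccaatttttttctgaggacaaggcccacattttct
Klrc1, GRCm38.p6 chr6:129678974-129679223, minus strand: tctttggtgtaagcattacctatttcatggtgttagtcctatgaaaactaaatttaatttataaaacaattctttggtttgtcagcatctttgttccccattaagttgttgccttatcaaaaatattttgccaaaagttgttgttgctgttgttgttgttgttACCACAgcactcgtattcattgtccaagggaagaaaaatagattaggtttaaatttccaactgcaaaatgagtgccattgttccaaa
Cd160, GRCm38.p6 chr3:96829352-96829601, minus strand: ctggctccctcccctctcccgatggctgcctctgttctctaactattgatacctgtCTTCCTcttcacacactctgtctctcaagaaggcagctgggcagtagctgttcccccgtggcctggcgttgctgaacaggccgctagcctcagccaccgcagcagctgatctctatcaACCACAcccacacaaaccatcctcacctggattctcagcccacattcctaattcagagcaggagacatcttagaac
The RUNX core occurred in 7 of these 8 windows, against 14.2% of the windows of 27025 genes. Ncr1 and Klrc2 each held 2 matches and Klra4 held none. The ETS core occurred in 2 of 8, Klrb1c and Cd160, against 29.2% of all windows, and the T-box core in 0 of 8, against 12.0%. The members are in part copies of one another, and a match to letters is not a bound site.

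The level of each receptor gene was low in both libraries. Library totals were 105728292 and 60752043 counts, and levels are counts per 1000000 (CPM) at library sizes scaled with edgeR's TMM factors. A fold is the CPM of the acupuncture library over that of the control library, with an exact 95% interval that covers counting error only. A gene counts as higher or lower when the fold is at least 2 in that direction and the interval excludes 1, given a combined count of at least 20, which 9 of 10 members had. With 1 library per group there is no replicate check and no test of the treatments, and no p-value is given.

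**Figure D1:**
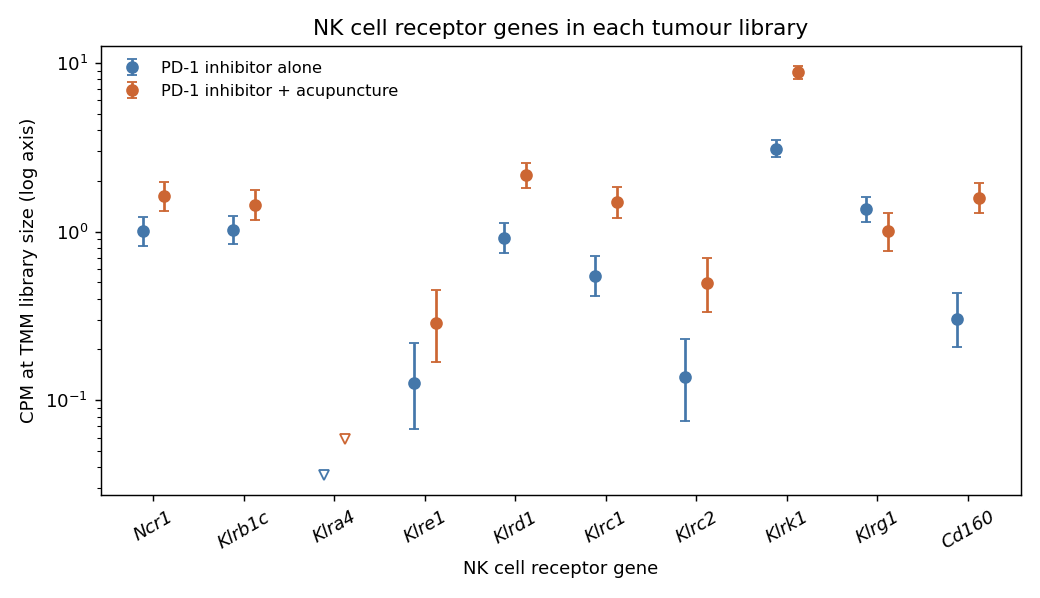
CPM (log axis) of the 10 NK receptor genes in the control library (PD-1 inhibitor alone, blue) and in the acupuncture library (orange). Bars are exact 95% Poisson intervals, and open triangles mark the upper limit for Klra4, which had 0 counts. Klrk1 stands highest in both libraries, and Klrg1 is the gene whose acupuncture value lies below the other.

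Of the 9 members tested, 6 were higher with acupuncture, 0 were lower and 3 lay between. With Ptprc, the leukocyte phosphatase CD45, set to 1-fold in place of TMM scaling, 2 were higher (Cd160 and Klrc2) and 1 lower (Klrg1), and Klrk1, Klrd1, Klrc1 and Klre1 no longer met the rule. In that Ptprc setting 758 of the 18687 genes tested were higher and 5828 lower. Under TMM scaling 9.21% of them were higher and 4.9% lower. The median log2 ratio of the 9 members was 1.21, while that of all genes tested was 0.0003. Their summed level was 8.54 CPM in the control library and 18.9 CPM in the acupuncture library, a 2.21-fold difference (2.02 to 2.41), to which Klrk1 contributed the most counts. These counts describe a list chosen with results in view.

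Ncr1 and Klrb1c, the receptors most typical of NK cells, lay short of a 2-fold difference. Ncr1, which encodes NKp46, had 103 counts in the control library and 102 with acupuncture, or 1.01 and 1.62 CPM. The counts were nearly equal and the second library was the shallower one, so the fold was 1.61 (1.21 to 2.13). Klrb1c, the activating receptor NK1.1, had 105 and 91 counts, or 1.03 and 1.45 CPM, at 1.41-fold (1.05 to 1.88). Both intervals lay above 1 and both folds were short of 2. Klre1, a partner chain that pairs with Klri1 or Klri2, rested on 13 and 18 counts, or 0.127 and 0.286 CPM. Its fold was 2.25 (1.04 to 4.99), and it was 1.68 (0.735 to 4.07) after the deeper library was thinned to the depth of the other in 1 draw, short of the limit. Klra4, the activating receptor Ly49D, had 0 counts in both libraries, which allows up to 0.0294 CPM and 0.0477 CPM at 3 counts per library. Ly49 genes differ in number between mouse strains, and the strain is not named in the labels. Summed, these 4 genes stood at 221 and 211 counts and 1.55-fold (1.28 to 1.88).

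The CD94/NKG2 receptors, which bind the MHC class Ib molecule Qa-1, were all higher. Klrd1, the CD94 chain common to them, had 94 counts in the control library and 136 with acupuncture, or 0.921 and 2.16 CPM, at 2.35-fold (1.79 to 3.09). Klrc1 had 56 and 94 counts, or 0.549 and 1.49 CPM, at 2.72-fold (1.94 to 3.86). Klrc2 had 14 and 31 counts, or 0.137 and 0.493 CPM, at 3.59-fold (1.86 to 7.31). The inhibitory and the activating chain were thus both higher, with overlapping intervals. Since their reads are partly shared, the sum is firmer than either value alone. Klrc1 and Klrc2 together had 70 and 125 counts and stood 2.90-fold higher (2.15 to 3.94). Klrc1 held 80.0% of that sum (68.7% to 88.6%) in the control library and 75.2% (66.7% to 82.5%) with acupuncture. The odds ratio was 0.758 (0.342 to 1.62), so a difference in the split was not detectable at this depth. Klrc3, which is no member and lies beside Klrc2, had 27 and 43 counts and was 2.58-fold higher (1.56 to 4.35). Klrc1 and Klrc2 share stretches with Klrc3 too. The 3 genes together had 97 and 168 counts and stood 2.81-fold higher (2.18 to 3.65).

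Klrk1 held the most counts of the 10 members in both libraries and so had the narrowest interval for its fold. It encodes NKG2D, the activating receptor for stress-induced ligands of the RAE-1, MULT1 and H60 families. It had 317 counts in the control library and 552 with acupuncture, or 3.11 and 8.77 CPM, and was 2.83-fold higher (2.46 to 3.25). All 6 genes of the stretch from Klre1 to Klrc1 met the 2-fold rule, at 2.25-fold to 3.59-fold, Klrc3 included. Cd160, a receptor of the immunoglobulin superfamily that binds HVEM, differed most. It had 31 and 100 counts, or 0.304 and 1.59 CPM, and was 5.23-fold higher (3.47 to 8.10).

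Klrg1 went the other way. It encodes an inhibitory receptor for cadherins that marks mature NK cells, effector T cells and some innate lymphoid cells. It had 139 counts in the control library and 63 with acupuncture, or 1.36 and 1.001 CPM, and stood at 0.735 times (0.537 to 0.997). That interval barely excluded 1, and it held 1 under scaling by total counts, at 0.789 times (0.576 to 1.07). With scaling to the median of the epithelial genes the value was 1.003 (0.733 to 1.36). With Ptprc set to 1-fold it was 0.423 (0.309 to 0.574), past the limit for lower, as were 5828 of the 18687 genes tested in that setting. Under TMM scaling the interval lay above 1 for 8 of the 9 members, against 35.1% of all genes tested, and below 1 for Klrg1 alone, against 34.8%.

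**Figure D2:**
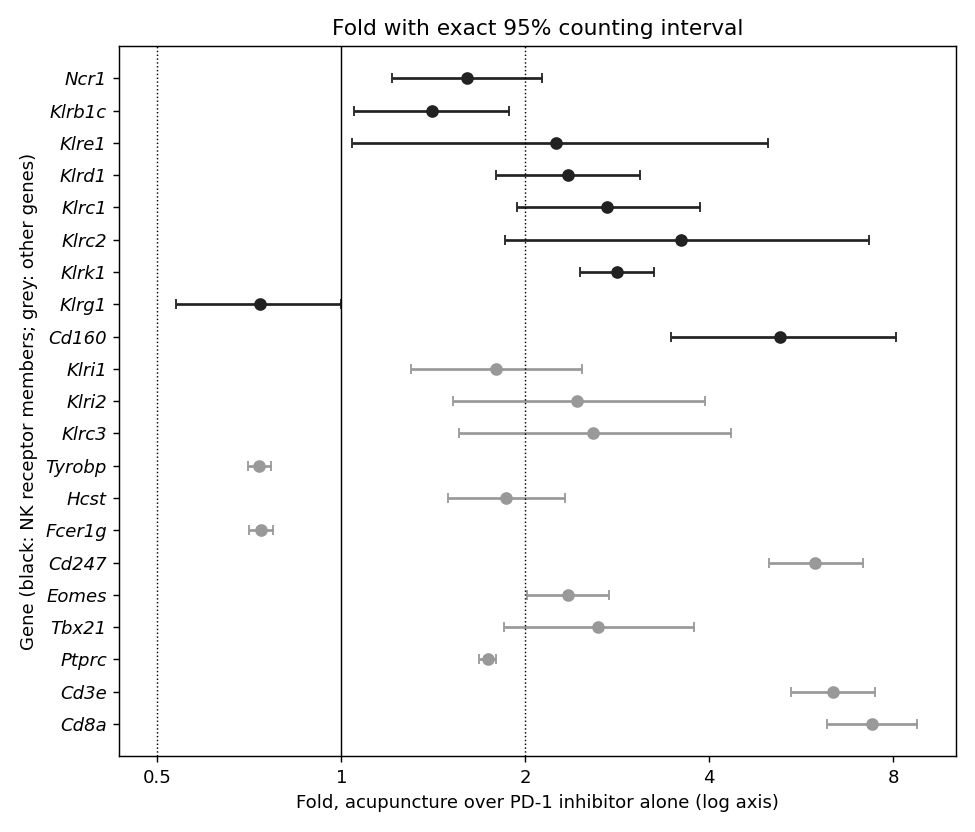
Fold (log axis) of each NK receptor gene with counts (black) and of related genes (grey), with exact 95% counting intervals. The solid line marks 1 and dotted lines mark 2-fold in each direction. Cd160 lies farthest right among the members, and Tyrobp and Fcer1g lie left of 1 while Cd247 lies near 6.

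Levels of different genes can be set side by side only per length, here CPM per kilobase of the exons of protein-coding transcripts in GENCODE M21, an older annotation than the authors' build. In the control library, Klrg1 (0.963), Klrd1 (0.953) and Klrk1 (0.905 CPM per kilobase) led with overlapping Poisson intervals. Ncr1 followed at 0.655, Klrb1c at 0.347, Klrc1 at 0.276, Cd160 at 0.115, Klre1 at 0.0984 and Klrc2 at 0.0427. The interval of Ncr1 overlapped that of Klrd1, and lay below those of Klrg1 and Klrk1. Intervals of Klrb1c and Klrc1 overlapped too, as did those of Cd160 and Klre1 and those of Klre1 and Klrc2. With acupuncture, Klrk1 (2.56) and Klrd1 (2.24 CPM per kilobase) led, with overlapping intervals, and Ncr1 came next at 1.05. Klrc1 at 0.753, Klrg1 at 0.708, Cd160 at 0.602 and Klrb1c at 0.488 each overlapped the next in order, and Klre1 at 0.221 and Klrc2 at 0.153 came last. The intervals of Klrc1 and Klrg1 also overlapped that of Ncr1, and those of Klre1 and Klrc2 overlapped each other. On this scale Klrg1 stood in the leading group of the control library and below Klrk1 and Klrd1 in the acupuncture library.

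The make-up of the receptor counts differed between the libraries, a measure that does not depend on how libraries are scaled. Ncr1, Klrb1c, Klre1 and Klra4 together took 25.3% of the 872 counts of the 10 genes in the control library (exact Clopper-Pearson 22.5% to 28.4%) and 17.8% of 1187 with acupuncture (15.6% to 20.1%). Klrk1 took 36.4% (33.2% to 39.6%) and 46.5% (43.6% to 49.4%). Klrg1 took 15.9% (13.6% to 18.5%) and 5.31% (4.10% to 6.74%), while Cd160 took 3.56% (2.43% to 5.01%) and 8.42% (6.91% to 10.2%). Klrb1c, counted among the 4 above, took 12.0% (9.96% to 14.4%) and 7.67% (6.22% to 9.33%). The intervals did not overlap for any of these. Shares of Klrd1, at 10.8% and 11.5%, and of Klre1, at 1.49% and 1.52%, had overlapping intervals. By class, the inhibitory members were Klrc1 and Klrg1 alone, and Klrd1, Klre1 and Cd160 were in neither class. Among activating and inhibitory members combined, the activating ones (Ncr1, Klrb1c, Klrk1, Klrc2, Klra4) held 73.4% (70.1% to 76.6%) and 83.2% (80.6% to 85.5%) of the counts. The odds ratio was 1.79 (1.40 to 2.28). Klrk1 and Klrg1 supply most of the counts behind that difference.

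**Figure D3:**
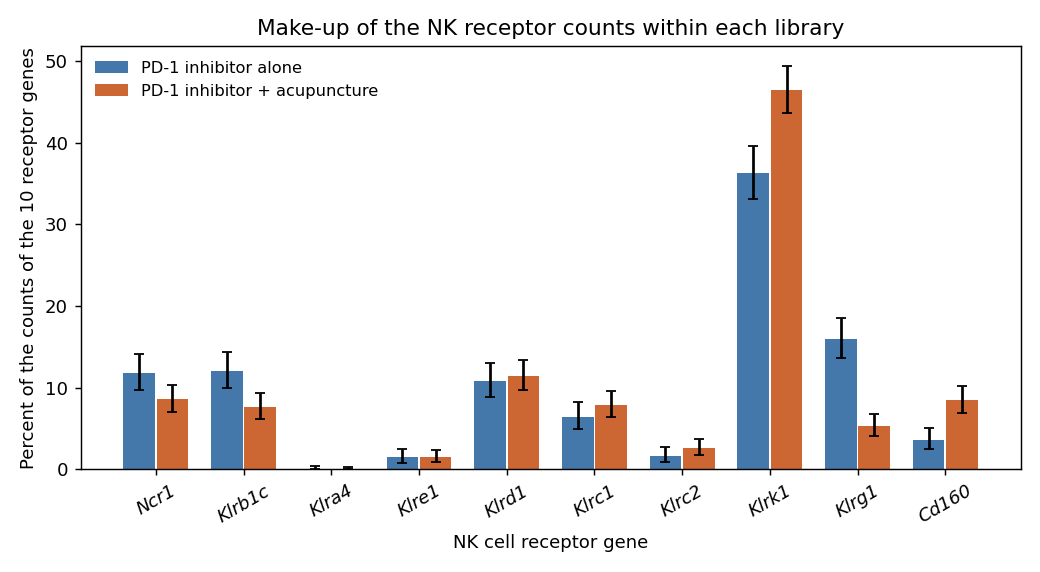
Percent of the counts of the 10 NK receptor genes that each gene took in the control library (PD-1 inhibitor alone, blue) and in the acupuncture library (orange), with exact 95% binomial intervals. Klrk1 and Cd160 take more and Klrg1 and Klrb1c take less in the acupuncture library, with intervals that do not overlap.

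Set against other immune genes, the members differed among themselves. Ptprc, the phosphatase CD45 found on all leukocytes, was at 72.5 and 126 CPM, a fold of 1.74 (1.68 to 1.79), short of the 2-fold limit. Its log2 ratio was 0.80, against a median of 0.22 (range -0.22 to 0.98) over the 12 leukocyte genes listed. Ratios to Ptprc are therefore relative to that gene alone and not to the leukocyte list. The fold of Ncr1 was 0.925 times that of Ptprc (exact interval 0.695 to 1.23), that of Klrb1c 0.809 times (0.603 to 1.08) and that of Klre1 1.29 times (0.599 to 2.87), so these 3 intervals all held 1. Klrd1 (1.35 times, 1.03 to 1.78), Klrc1 (1.57 times, 1.11 to 2.23), Klrk1 (1.63 times, 1.41 to 1.88), Klrc2 (2.07 times, 1.07 to 4.21) and Cd160 (3.01 times, 1.99 to 4.67) stood above it, and Klrg1 (0.423 times, 0.309 to 0.575) below. Genes of the T cell receptor complex had larger folds. Cd3e, a chain of the T cell receptor complex, was 6.37-fold higher (5.45 to 7.47) and Cd8a, the CD8 co-receptor, 7.38-fold (6.24 to 8.77). Against Cd8a, 7 of 9 members had a smaller fold with an interval below 1, from 0.0996 times for Klrg1 to 0.383 times for Klrk1. The exceptions were Cd160, at 0.709 times (0.452 to 1.14), and Klrc2, at 0.487 times (0.245 to 1.01). The same 2 were the exceptions against Cd3e, at 0.822 times (0.527 to 1.31) and 0.564 times (0.285 to 1.17). Against Ncr1, the folds of Klrk1 (1.76 times, 1.28 to 2.42), Klrc1 (1.70 times, 1.08 to 2.67), Klrc2 (2.24 times, 1.08 to 4.82) and Cd160 (3.26 times, 1.95 to 5.49) were larger and that of Klrg1 smaller (0.458 times, 0.299 to 0.699). These intervals are not adjusted for the number of ratios computed.

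**Figure D4:**
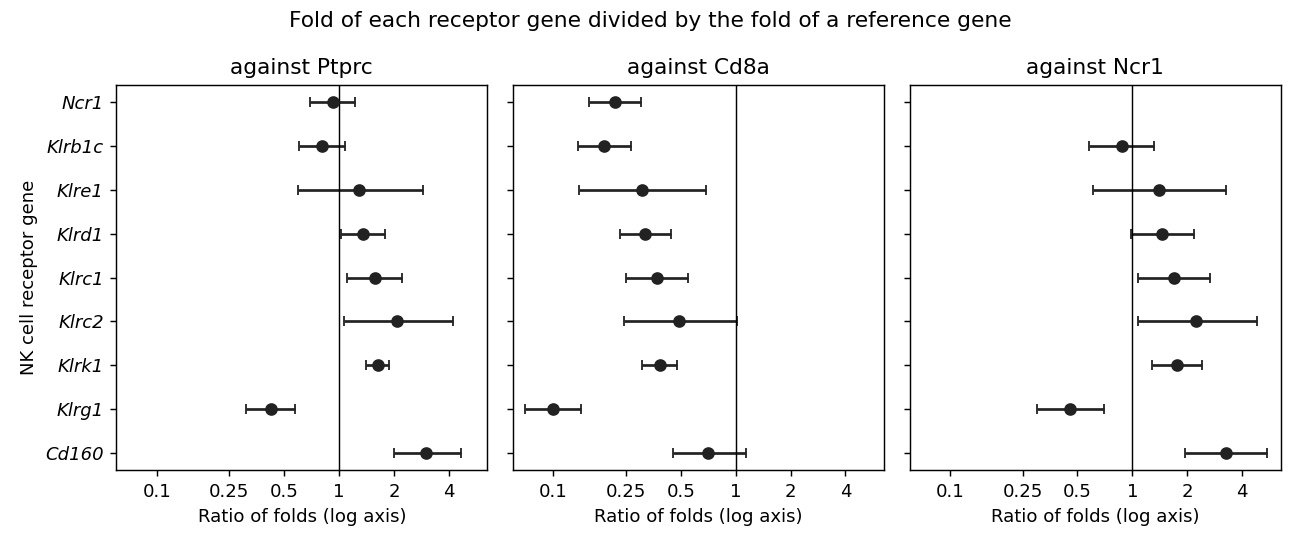
Fold of each receptor gene divided by the fold of Ptprc (left), Cd8a (middle) and Ncr1 (right), on log axes, with exact conditional 95% intervals. All members lie left of the line at 1 against Cd8a, where the intervals of Cd160 and Klrc2 reach it, and Ncr1, Klrb1c and Klre1 straddle it against Ptprc.

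Genes of other cell types differed between the same libraries. All 20 T cell markers were higher, and their summed level was 42.0 CPM in the control library and 235 CPM in the acupuncture library. All 14 B cell markers were higher (12.2 and 177 CPM), as were 13 of 14 lymph node genes (30.8 and 282 CPM), 14 of 15 adipocyte genes (651 and 2372 CPM) and all 15 skeletal muscle genes (273 and 2628 CPM). Of the neutrophil genes, 10 of 12 were lower (565 and 159 CPM), with 2 of 12 lower for macrophages (3330 and 2518 CPM) and 3 of 15 lower for epithelium (4471 and 3086 CPM). Of 12 leukocyte genes and of 10 tested genes of other innate lymphoid cells, Ncr1 among the latter, none met the rule for higher or lower. Their summed levels were 1216 and 1449 CPM and 154 and 141 CPM, and their median log2 ratios were 0.22 and -0.12. Short of the limit, 10 of the 12 leukocyte genes had a log2 ratio above 0. No marker of these lists was at 0 in both libraries. The part of these differences in tissue content in the receptor values was not tested. The epithelial keratins Krt8 and Krt18, at 1564 and 1432 CPM in the control library, were the most abundant markers of the labelled tissue.

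The adaptors differed from one another. Tyrobp, which serves Ly49D, NKG2C and part of NKG2D, was at 67.1 and 49.3 CPM, 0.734 times (0.704 to 0.766), and Fcer1g, which serves NKp46 and NK1.1, was at 60.8 and 44.9 CPM, 0.739 times (0.707 to 0.773). Myeloid cells express both. In summed CPM the macrophage list stood at 0.756 times and the neutrophil list at 0.282 times. The part of myeloid content in the adaptor values was not tested. Hcst, the adaptor of NKG2D, stood at 1.86-fold (1.49 to 2.32), short of the limit, and Cd247, which T cells share, was 5.96-fold higher (5.01 to 7.13). Relative to Tyrobp, the folds of 8 of 9 members were larger, from 1.92 times for Klrb1c to 7.13 times for Cd160, while Klrg1 was level with it at 1.002 times (0.729 to 1.36). In the whole list of adaptors and signalling genes, 5 of 21 tested were higher, 0 lower, and the median log2 ratio was -0.02. The 5 were Lck, Lat, Cd247, Zap70 and Sh2d1a, 4.36-fold to 9.10-fold higher, all of which act in T cells too.

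Ligands of the receptors differed little. Of 24 listed genes 19 were in the table and 15 tested, of which 2 were higher and 0 lower, with a median log2 ratio of -0.003. Qa-1, from H2-T23, the ligand of the CD94/NKG2 receptors, was at 276 and 348 CPM, a fold of 1.26 (1.24 to 1.28), short of the limit. The 2 that met the rule were Clec2i, a ligand of the NKR-P1 family, at 3.08-fold (2.43 to 3.92) and Cdh2, N-cadherin, bound by KLRG1, at 2.49-fold (1.96 to 3.18). Cdh2 was at 1.12 and 2.78 CPM. Cdh1, E-cadherin, a far more abundant cadherin of the list, was at 187 and 126 CPM. Its fold went the other way, at 0.675 times (0.658 to 0.693), short of the limit. Cdh4, with 2 and 13 counts, was not tested.

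Transcription factors and effectors of NK cells were partly higher. Eomes and Tbx21, the T-box factors of NK cells that effector CD8 T cells also use, were 2.35-fold (2.01 to 2.74) and 2.63-fold (1.85 to 3.78) higher, from 280 and 405 counts and from 53 and 86 counts. Ikzf3 (6.15-fold), Tox (4.27-fold) and Tox2 (4.09-fold) made up the rest of the 5 of 14 factors that were higher. None met the rule for lower, and the median log2 ratio was 0.26. The 9 others were short of the limit. Among them, Nfil3, Gata3, Runx3 and Id2 (0.627 to 0.798 times) had intervals below 1. Ets1, Zeb2, Irf2 and Bach2 (1.14-fold to 1.35-fold) had intervals above 1, and that of Prdm1 held 1. Of 17 effector genes tested 7 were higher and 2 lower, at a median of 0.93. Those higher and most abundant were Tnfsf10, the death ligand TRAIL, at 2.47-fold (2.30 to 2.65), Nkg7, a granule protein, at 4.75-fold (4.09 to 5.53), Gzma at 2.50-fold, the protease Ctsw at 3.08-fold and Gzmk at 4.61-fold. The lower ones were the chemokine Ccl3, 2.83-fold lower (2.35 to 3.43), and the growth factor Csf2, 4.88-fold lower (3.24 to 7.65). The other 8 effector genes were short of the limit. Prf1, Serpinb9, Fasl, Gzmb and Ccl5 (1.32-fold to 1.94-fold) had intervals above 1, and Srgn, Lyst and Ccl4 (0.529 to 0.792 times) had intervals below 1. The summed level of the effector list was 306 CPM in the control library and 294 CPM with acupuncture.

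Genes of cytokines that act on NK cells and of cytokine receptors, taken as 1 list, were higher in part. Of 17 genes of this list 8 were higher, 0 lower, and the median log2 ratio was 0.97. Il15, the survival cytokine of NK cells, stood at 1.54-fold (1.37 to 1.74), short of the 2-fold limit. Il15ra, which presents it, was 2.41-fold higher (2.27 to 2.55). Il2rb, the signalling chain for Il15, was 2.20-fold higher (2.03 to 2.38) and Il2ra 2.24-fold. The interleukin 12 receptor chain Il12rb1 was 2.19-fold higher and the interleukin 18 receptor chain Il18r1 2.71-fold, the latter at 2.01 and 5.45 CPM. Their partner chains did not meet the rule. Il12rb2 was at 1.02-fold (0.889 to 1.17), and Il18rap, at 41.5 and 24.9 CPM, was at 0.601 times (0.567 to 0.637). T cells express these receptors as well.

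**Figure D5:**
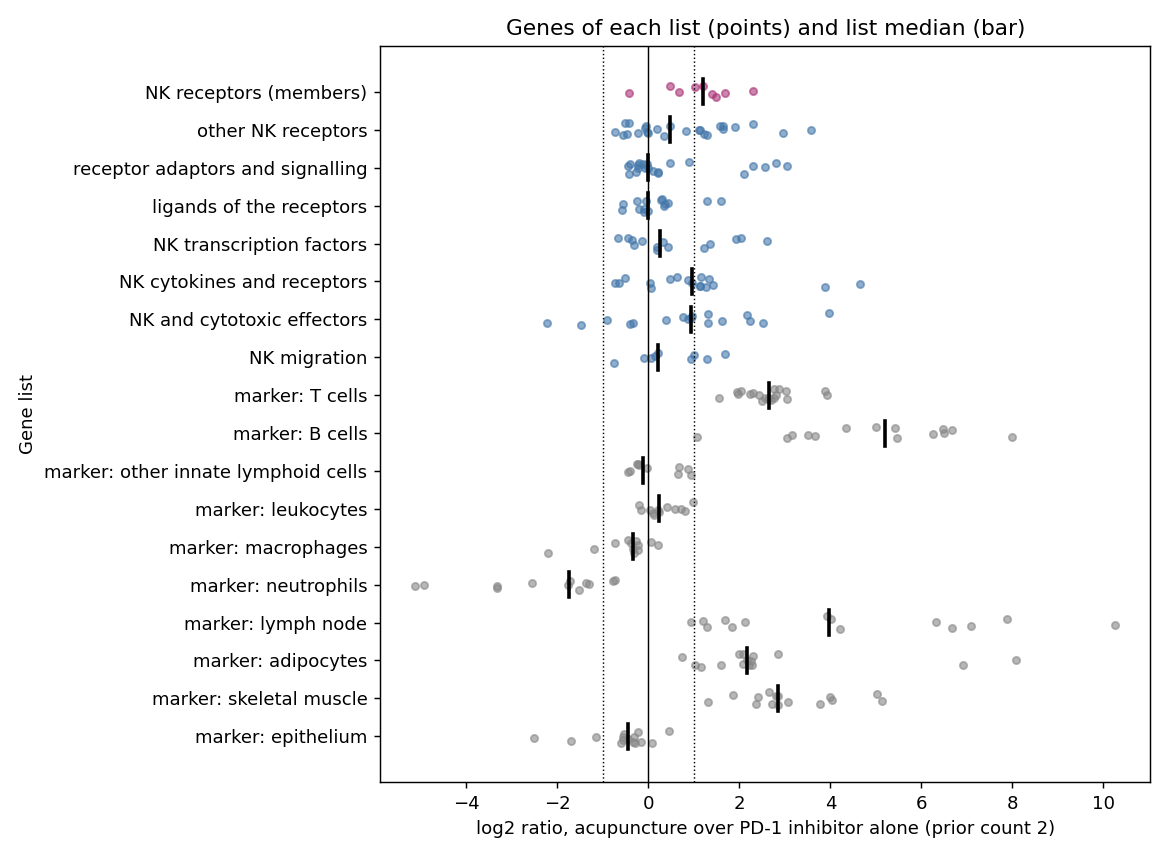
Log2 ratio (acupuncture over PD-1 inhibitor alone, prior count 2) of each tested gene (points) in the NK receptor list (magenta), the lists of NK biology (blue) and the marker lists (grey), with the median of each list as a black bar. The NK receptor median of 1.21 lies between those of the leukocyte list (0.22) and the T cell list (2.64), and dotted lines mark a log2 ratio of 1 in each direction.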

How the data were processed

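The deposited table holds unnormalized counts, 1 column for each of the 2 libraries, with gene symbols as names. Per the labels' protocols, RNA was column-purified and libraries were made with a SMARTer kit for messenger RNA. GRCm39 and mm39 are named in the submitters' processing notes. No aligner, counting program or strand use is named in the labels.

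The members and gene lists were chosen with earlier results of these data known. TMM factors came from edgeR 4.0.16 (R 4.3.3) over 18687 genes (20 or more counts in both libraries combined), and were 0.966 and 1.04. CPM is counts per 1000000 of the scaled library size. Fold intervals are Clopper-Pearson intervals of the split of the combined count, ratios of folds have exact conditional intervals, and levels have exact Poisson intervals, all at 95%. Since reads are not independent molecules, the intervals and the floors of 3 counts cover counting error only. Log2 ratios carry a prior count of 2. Of 277 listed genes 8 had no symbol in the table. All 10 members are named, and of other lists at most 5 genes per direction past the limit in order of combined count, with a few fixed adaptors, factors, cytokines and reference genes. Klrc3, Krt8 and Krt18 are named for their bearing on a result. Cdh1, Cdh4, Tigit, Il12rb2, Il18rap and the transcription factors and effector genes short of the limit are named for the same reason, after their values were seen. A gene that this rule names is not reported here. No gene is named for likeness of pattern, since 2 libraries give each gene 1 ratio. The calculation was tested on simulated data. Software was Python 3.11.15, scipy 1.17.1, numpy 2.4.6, matplotlib 3.10.9 and pandas 2.3.3. Scaling by totals, DESeq2 1.42.0 size factors, upper quartile, Ptprc or the epithelial list was tried as an alternative. Another was scaling by totals without the genes among the 10 most abundant of either library. Other prior counts, count minimums and fold limits, and thinning of the deeper library, were tried too. Shared 50-base stretches were counted on the transcript strand only.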

Additional observations from a re-analysis of the deposited data

How the results depend on the processing

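Under scaling by total counts, DESeq2 size factors, upper quartile and totals without the 10 most abundant genes, 6 members were higher and 0 lower, and the median log2 ratio of the members ran from 1.19 to 1.31. With Ptprc set to 1-fold, 2 members were higher and 1 lower, the median was 0.43, and 758 genes of the whole table were higher and 5828 lower, against 1721 and 916 in the reported scaling. Ncr1 and Klrb1c then had log2 ratios of -0.11 and -0.30. With scaling to the median of the epithelial genes, 3104 genes were higher and 418 lower, 7 members were higher, Ncr1 being added at 2.19-fold, and Klrg1 stood at 0.004. A 4-fold limit left 1 member, Cd160, with 678 genes higher and 262 lower. A minimum of 100 counts, which tests fewer genes, left 4 members, with 1055 genes higher and 500 lower. Thinning left 5 members, Klre1 being lost, with 1653 genes higher and 797 lower. Genes such as Klre1 and Klrc2, with under 50 counts combined, are limited by depth. No paired analysis was possible because each group has 1 library. Leaving out a library was not possible for the same reason.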

Other observations

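Other receptors of NK cells, listed beside the 10 members, differed less as a group. Of 25 tested, 11 were higher and 0 lower, with a median log2 ratio of 0.47. The most abundant of those higher were Il2rb, at 10.1 and 22.3 CPM, the SLAM family receptors Slamf6, 4.95-fold higher (4.27 to 5.76), and Slamf7, 3.80-fold (3.003 to 4.84), and the nectin receptors Cd226, 8.04-fold (6.11 to 10.7), and Cd96, 12.9-fold (8.72 to 19.6). Tigit, a nectin receptor of the same list, went the other way at 15.3 and 10.7 CPM, 0.701 times (0.639 to 0.767), short of the limit. So did Fcgr3 (96.3 and 71.7 CPM, 0.745 times), Itga2 (61.1 and 41.4 CPM, 0.677 times), Pilrb1 (0.717 times) and Klrg2 (0.856 times), all with intervals below 1. The summed level of the list was 239 CPM in the control library and 225 CPM with acupuncture. T cells carry Cd226, Cd96 and Slamf6 as well, and all 20 T cell markers were higher in the same library. The part of T cell content in these folds was not tested. Of the chains that pair with Klre1, Klri1 stood at 1.79-fold (1.30 to 2.48), short of the limit, from 76 and 84 counts. Klri2 was 2.43-fold higher (1.52 to 3.93), from 32 and 48 counts. Klra6, Klra8 and Klrh1 had 0 counts in both libraries, as did the member Klra4. Klri1, Klra6, Klra8, Klrh1, Fcgr3, Itga2, Pilrb1 and Klrg2 were named after their values were seen.

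Of 9 genes of NK cell migration tested, 3 were higher and 0 lower, with a median log2 ratio of 0.21. Ccr7, which guides cells to lymph nodes, was 2.45-fold higher (2.23 to 2.68), and Cxcr3, the receptor for interferon-induced chemokines, 2.01-fold (1.79 to 2.26). B and T cells express Ccr7 too, and 13 of 14 lymph node genes, Ccr7 among them, were higher in that library. The part of lymph node content in the value of Ccr7 was not tested.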
